A study of Mus musculus with 6 samples.

Results

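The elastic fiber genes described here are 10 genes that encode elastin, the fibrillins, fibulins and other proteins of the elastic fiber. They are Eln, Fbn1, Fbn2, Fbln1, Fbln2, Fbln5, Efemp1, Efemp2, Emilin1 and Mfap2, chosen by gene symbol, and all 10 were found among the 33924 genes of the deposited table. RPE/choroid, the retinal pigment epithelium (RPE) together with the vessel layer behind it, was taken from 3 young and 3 aged C57BL/6J mice with no transgene or treatment named, and both eyes of a mouse were pooled. The sample titles give 1 to 2 months for young mice and 20 to 24 months for aged mice. A second age field gives 22 to 24 months for aged mice, the study's methods give a higher age range than the titles for young mice, and the labels describe the mice as male where the methods describe both sexes. Each gene has 1 value here, the authors' mean normalized count over the 6 libraries, in which young and aged mice are averaged together. The difference between the age groups was therefore not analysed here, no SD between mice could be computed, and how deeply each library was sequenced is unknown.

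Elastic fibers give arteries, skin, lung and the elastic layer in the middle of Bruch's membrane, the sheet between RPE and choroid, their recoil. Cells secrete tropoelastin, the product of Eln, onto a scaffold of microfibrils made of fibrillins, lysyl oxidases then crosslink it, and fibulins and EMILIN proteins help it to assemble. Elastin is made mostly around birth and is then very long-lived, and mutations in several of these genes cause diseases of the aorta, skin, lung or eye.

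In the mean of the 6 libraries the fibulins Efemp1, Fbln1, Fbln5 and Efemp2 held the first 4 places among the elastic fiber genes per kilobase, while Fbln2 was seventh and elastin eighth. Levels of different genes are given per length, as the mean normalized count divided by the kilobases (kb) of the gene's longest annotated transcript. By the undivided count Fbn1 was first, followed by Fbln5, Fbln1, Efemp1 and Efemp2. Which scale fits depends on whether the deposited counts still carry transcript length, since the study's methods derive them from TPM, a transcript unit already corrected for length. In the table the median count rose with length, from 559 over protein-coding genes of 200 to 1000 bases to 1014 over those of 4000 bases or more, and the smallest mean above 0 was nearly the same in both, at 0.157 and 0.161. These values do not settle the point, so counts and levels per kb stand side by side, and ratios between genes are per kb unless said otherwise. Per kb Efemp1 was the highest member at 2505 per kb and Fbn2 the lowest at 94.3 per kb, a ratio of 26.6, or 4.90 by count. All 10 members reached the minimum mean of 10 set here, and their median level was 601 per kb, beside 213 per kb over the 17973 genes that reached it and had a gene model. The members held 0.0876% of the summed mean normalized counts of 40816668. The 5 fibulins carried 77.7% of the members' summed level per kb, the 2 fibrillins 9.07%, Emilin1 5.83%, Eln 3.78% and Mfap2 3.64%. Without the division by length the fibulins held 63.9% of the members' counts and the fibrillins 26.2%, as the fibrillin transcripts are the longest of the list. The fibulins are 5 of the 10 genes, so their sum is set against groups of 1 or 2 genes.

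**Figure D1:**
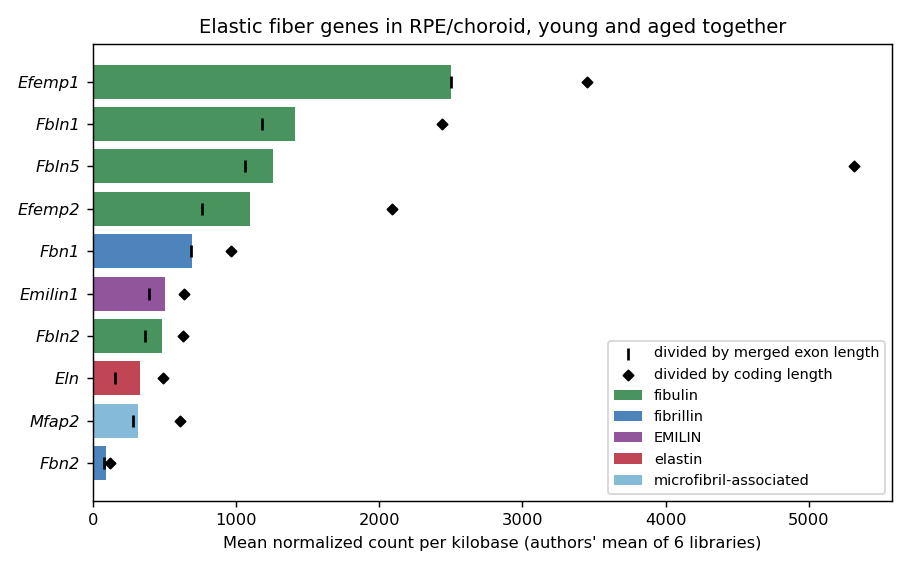
Level of each elastic fiber gene in RPE/choroid as bars, in mean normalized counts per kb of the longest transcript, averaged by the authors over 6 libraries, with no error bar because the table holds no value per library. Ticks and diamonds give the same count divided by merged exon length and by coding length. Efemp1 has the longest bar at 2505 per kb and Fbn2 the shortest at 94.3 per kb.

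Sequences just before a transcription start are shown for 4 members, Efemp1, Fbn1, Efemp2 and Mfap2. Efemp1 was at the top of the order of levels per kb and Mfap2 near its bottom. Fbn1 had the highest count, and Efemp2 the most GC-rich of these 4 windows. The sequences are the 250 bases before a RefSeq start in GRCm38.p6, written 5′ to 3′ along the gene. Capitals mark every match on either strand to the TATA box core TATAAA, the CCAAT box, the GC box core GGGCGG or a Smad-type element read as CAGACA.
Efemp1, chr11:28852955-28853204, plus strand: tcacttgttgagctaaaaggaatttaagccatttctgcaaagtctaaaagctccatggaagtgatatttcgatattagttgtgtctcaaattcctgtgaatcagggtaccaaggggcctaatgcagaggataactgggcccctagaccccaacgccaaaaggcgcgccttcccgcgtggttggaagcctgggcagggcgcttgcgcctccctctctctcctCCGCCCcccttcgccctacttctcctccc
Fbn1, chr2:125506439-125506688, minus strand: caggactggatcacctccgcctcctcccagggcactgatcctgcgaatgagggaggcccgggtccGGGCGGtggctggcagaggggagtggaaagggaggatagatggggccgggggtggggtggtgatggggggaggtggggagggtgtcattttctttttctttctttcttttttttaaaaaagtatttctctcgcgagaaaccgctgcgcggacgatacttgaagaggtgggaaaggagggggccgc
Efemp2, chr19:5474440-5474689, plus strand: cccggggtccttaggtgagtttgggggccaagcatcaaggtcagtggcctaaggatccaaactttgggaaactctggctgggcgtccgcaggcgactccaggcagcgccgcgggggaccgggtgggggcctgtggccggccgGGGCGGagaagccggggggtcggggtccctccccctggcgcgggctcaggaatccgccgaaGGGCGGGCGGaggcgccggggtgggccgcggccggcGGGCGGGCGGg
Mfap2, chr4:141010174-141010423, plus strand: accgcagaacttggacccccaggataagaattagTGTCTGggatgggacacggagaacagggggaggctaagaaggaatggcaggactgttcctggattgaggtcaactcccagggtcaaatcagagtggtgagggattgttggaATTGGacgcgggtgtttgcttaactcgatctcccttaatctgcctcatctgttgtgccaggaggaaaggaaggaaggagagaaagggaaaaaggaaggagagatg

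RefSeq starts were found for 8 of the 10 members, with 13 windows among them, some of which overlap within a gene. Eln and Fbn2 had none in the table used. The printed windows of Fbn1 and Efemp2 lie inside the gene spans given below, as these RefSeq starts are downstream of the annotated gene start. GGGCGG was present before at least 1 start of 7 of the 8 members with a RefSeq start, and Emilin1 was the exception. Among all 27025 genes with a RefSeq start the share was 35.4%. A gene with several starts has more windows in which a match can fall. Per start, GGGCGG was present before 9 of the 13, beside 32.7% of all 32851 starts. TATAAA was present before 0 of the 13 starts, beside 12.4% of all 32851 starts. CCAAT was found in Fbln5 and Mfap2, beside 37.5% of all genes, and CAGACA in Fbln1, Fbln5, Emilin1 and Mfap2, beside 19.3% of all genes. The GGGCGG matches were not spread evenly, as the Efemp2 window printed above holds 5, partly overlapping, and the Efemp1 and Fbn1 windows 1 each. The GC content of the windows ran from 46.4% at a start of Fbln1 to 78.8% at a start of Efemp2, around a median of 52.4% over all starts. These matches describe the letters in the windows, and binding of a factor was not measured.

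Eln (ENSMUSG00000029675) encodes tropoelastin, the soluble precursor of the elastic core. In GRCm38 it spans bases 134702593 to 134747323 of chromosome 5, on the minus strand, and its longest transcript has 37 exons and 3853 bases. Its mean normalized count was 1268, which is 329 per kb and above 59.7% of the genes with a count of at least 10. Eln stood in the eighth place of the members. It was 1.04 times Mfap2, the next gene, on the longest transcript and below it with each of the 3 other lengths tried. The level of Eln was sensitive to its gene model, with 157 per kb over its 8098 bases of merged exons. An antisense gene, Gm30003, lies across it on the opposite strand.

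The fibrillins are large glycoproteins that polymerize into the microfibrils on which elastin is deposited. Fbn1 is the main fibrillin of adult tissue, and Fbn2 is best known from development. Fbn1 (ENSMUSG00000027204, chromosome 2, 125300594 to 125507993, minus strand) had the highest count of the members at 8318 and, with a transcript of 11971 bases in 65 exons, a level of 695 per kb. Fbn2 (ENSMUSG00000024598, chromosome 18, 58008623 to 58210487, minus strand) had a count of 1042 and a level of 94.3 per kb from a transcript of 11041 bases, also in 65 exons. Fbn1 was thus 7.37 times as abundant as Fbn2, and between 7.37 and 8.70 times over the 4 lengths. Per kb Fbn2 was above 33.6% of the genes with a count of at least 10, the only member below their median. It was above 50.4% of all genes with a count above 0. Fbn1 was above 75.8% of the genes with a count of at least 10. No percentile by count was computed. By count Fbn2 lay above the median of each length class of protein-coding genes, the highest of which was 1014. Mfap2, at a count of 340, lay below each of them, the lowest of which was 559. Fbn1 was 2.11 times as abundant as Eln, with a range from 1.96 to 4.38, and 6.56 times by count.

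Mfap2 encodes MAGP-1, a small protein bound to fibrillin microfibrils. It (ENSMUSG00000060572, chromosome 4, 141010418 to 141015984, plus strand) had the lowest count of the members at 340, but its transcript is also the shortest at 1073 bases, and its level was 317 per kb. Mfap2 was lowest by count and ninth per kb, or eighth with the other 3 lengths. Mfap5, which encodes the related MAGP-2, was higher at 963 per kb, between 2.38 and 10.4 times Mfap2 over the 4 lengths. Mfap4 and Mfap3, which share the name but belong to other protein families, stood at 1221 and 172 per kb.

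Emilin1 encodes a glycoprotein at the border of the elastic core and the microfibrils, which also binds latent TGF-beta precursors. Emilin1 (ENSMUSG00000029163, chromosome 5, 30913402 to 30921277, plus strand) had a count of 1955 and a level of 508 per kb, above 69.2% of genes. It was 1.54 times as abundant as Eln, with a range from 1.30 to 2.53, and 3.54 times as abundant as Emilin2. With 61.1% its transcript had the highest GC content of the members.

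**Figure D2:**
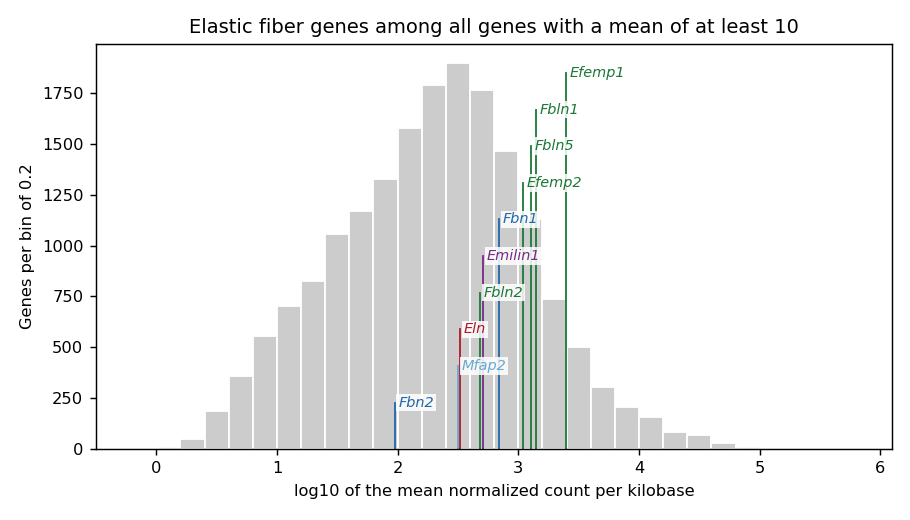
Histogram of the level per kb, as log10, over 17973 genes at or above the minimum mean of 10, with a line for each elastic fiber gene colored by role. The height of a line carries no value. The members run from Fbn2, above 33.6% of the genes, to Efemp1, above 92.3%.

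Efemp1 encodes fibulin-3, which is made by RPE and is the gene of an inherited macular dystrophy with drusen. It (ENSMUSG00000020467, chromosome 11, 28853204 to 28926743, plus strand) had a count of 5103 over a transcript of 2037 bases, which gives 2505 per kb, above 92.3% of genes. By count Efemp1, at 5103, lay slightly below Fbln1 at 5160, and below Fbln5 at 7356 and Fbn1 at 8318. Per kb Efemp1 was 1.78 times the next member, Fbln1, and between 1.41 and 2.12 times over the 4 lengths. It was first with the longest transcript and with merged exons and second with the other 2 lengths. Its transcript had the lowest GC content of the members at 44.9%.

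Efemp2 encodes fibulin-4, which brings lysyl oxidase and tropoelastin together. It (ENSMUSG00000024909, chromosome 19, 5473954 to 5482517, plus strand) had a count of 2898 and a level of 1100 per kb, which is 3.34 times that of Eln, with a range from 3.34 to 7.78, and 2.29 times by count. Efemp2 has 17 annotated transcripts, the most of the members, and overlaps the protein-coding gene Mus81 on the opposite strand.

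Fbln5 encodes fibulin-5, which binds tropoelastin, lysyl oxidase-like 1 and cell surface integrins. It (ENSMUSG00000021186, chromosome 12, 101746565 to 101819055, minus strand) had the second highest count at 7356 and a level of 1262 per kb, 3.83 times that of Eln, with a range from 3.83 to 10.8, and 5.80 times by count. Its place depended on the length used, as only 1383 of its 5829 bases are coding, and per kb of coding sequence it was first with 5319.

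Fbln1 encodes fibulin-1, a protein of elastic fibers and basement membranes. It (ENSMUSG00000006369, chromosome 15, 85205949 to 85286535, plus strand) had a count of 5160 and a level of 1410 per kb, above 87.0% of genes. Fbln1 exceeded Fbln5 1.12-fold on the longest transcript and 1.11-fold on merged exons, and was 0.459 times Fbln5 on coding length, so these 2 genes cannot be ordered.

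Fbln2 encodes fibulin-2, which binds elastin, fibrillin-1 and basement membrane proteins. It (ENSMUSG00000064080, chromosome 6, 91212455 to 91272540, plus strand) had a count of 2314 and a level of 484 per kb, the lowest of the fibulins on the list. Fbln1 was 2.92 times Fbln2 on the longest transcript, but 0.359 times with the median of the coding transcripts. That median was 477 bases for Fbln2, shorter than its coding sequence of 3663 bases, and put Fbln2 first of the members at 4852 per kb.

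The order of the 10 members on the longest transcript, from the top, was Efemp1, Fbln1, Fbln5, Efemp2, Fbn1, Emilin1, Fbln2, Eln, Mfap2 and Fbn2. Of the 45 pairs of members 34 kept their order under all 4 lengths. With the median of the coding transcripts left out, 42 did. All 4 settings divide by a length, so these tallies do not test the order by count. By count Fbn1 (8318) lay above Fbln5 (7356), Fbln1 (5160), Efemp1 (5103) and Efemp2 (2898). Fbn2 (1042) lay above Mfap2 (340) by count, and Fbln1 slightly above Efemp1. Each of these pairs had the opposite order under all 4 lengths. Among the 9 neighbors in the order, Fbln1 and Fbln5, Fbln5 and Efemp2, Emilin1 and Fbln2, and Eln and Mfap2 changed places under at least 1 length. Emilin1 and Fbln2 differed 1.05-fold on the longest transcript. Whether neighbors differ beyond the spread between mice could not be examined. Reads shared with related genes were looked for through words of 50 bases. In each of the 10 longest transcripts 100% of the words were found in no transcript of another gene. Words were compared only in the direction of each transcript, so exons shared with a gene on the opposite strand could not show up. The overlapping genes of Efemp2, Fbn1, Eln and Fbn2 all lie on the opposite strand, and the library kit keeps the strand, but whether the authors' quantification used it is not given in the sources used here.

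Beyond the 10 members, the 5 lysyl oxidases, which crosslink elastin and collagen, all had a count of at least 10, with levels from 228 per kb (Loxl4) to 931 per kb (Loxl1). Loxl1, the family member tied to elastic fiber upkeep in adults, was 2.83 times as abundant as Eln, with a range from 2.83 to 5.95, and 2.42 times by count. Lox was 1.62 times as abundant as Eln, with a range from 1.62 to 4.17, and 1.99 times by count. The 4 latent TGF-beta binding proteins, relatives of the fibrillins, lay between 207 per kb (Ltbp4) and 570 per kb (Ltbp3). The 11 other microfibril-associated genes in the table had a median of 172 per kb and were led by Mfap4. The 7 other fibulins and EMILINs had a median of 68.3 per kb and were led by Mmrn2, an endothelial EMILIN relative, at 742 per kb, and 4 of them lay below the lowest member. Of 9 enzymes able to degrade elastin, 7 had a count of at least 10, and the highest was Ctss, the lysosomal protease cathepsin S, at 36722 per kb. Mmp7 was listed at 0, and Elane, neutrophil elastase, at a mean normalized count of 0.676. The lists were set by symbol, and no test was made between them.

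**Figure D3:**
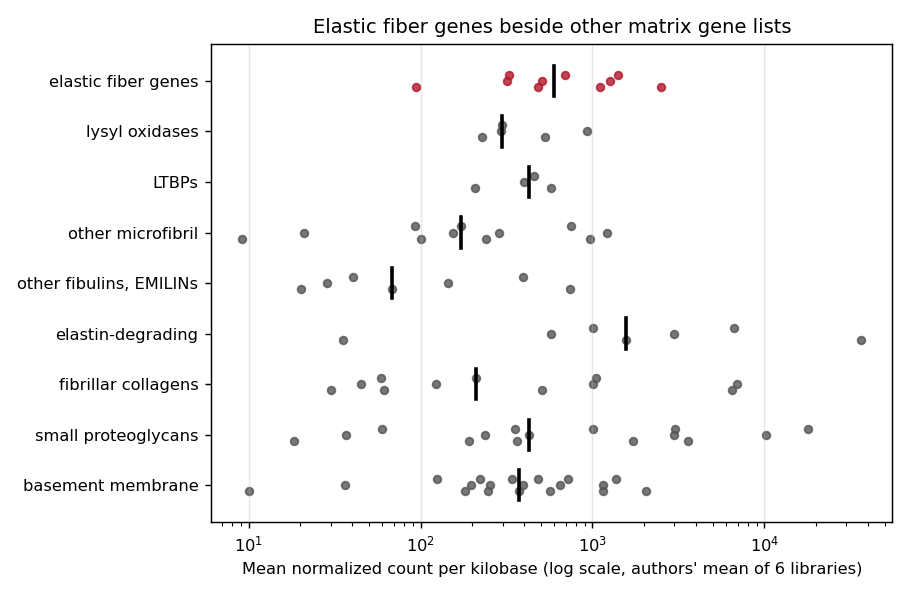
Level per kb on a log axis of each gene with a count of at least 10 in the elastic fiber genes (red) and in 8 other matrix gene lists (grey), as the authors' mean of 6 libraries, with a black bar at each list's median. The elastic fiber genes have a median of 601 per kb and reach 2505 per kb, while the elastin-degrading enzymes, the proteoglycans and the fibrillar collagens reach 36722, 18042 and 6960 per kb.

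Among the matrix lists most like the elastic fiber genes, the 11 fibrillar collagens had a median of 211 per kb, the 15 small leucine-rich proteoglycans 429 per kb and the 19 basement membrane genes 375 per kb, beside 601 per kb for the elastic fiber genes. Medians by count were not computed, so these gaps between lists hold only for levels divided by length. The elastic fiber genes had no member as abundant as the top genes of the first 2 lists, Col1a2 at 6960 per kb and Dcn at 18042 per kb, and spanned a narrower range, since 4 of the collagens and 3 of the proteoglycans lay below the lowest elastic fiber gene. The basement membrane genes were led by Lamb2 at 2047 per kb, below Efemp1, and 2 of them lay below Fbn2. By count this order was reversed, with Lamb2 at 11525, above Fbn1, the highest elastic fiber gene at 8318. By counts the collagens held 0.230%, the proteoglycans 0.361% and the basement membrane genes 0.170% of the total. These are values side by side, with no test of a difference.

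The libraries held RNA of several cell types, and which cells the elastic fiber transcripts came from was not measured. Of 7 RPE markers 6 lay above the highest elastic fiber gene, up to 335233 per kb for Ttr, while Best1 was at 39.3 per kb. The 5 fibroblast markers ranged from 798 to 18042 per kb and the 6 markers of smooth muscle and pericytes, vessel wall cells that make elastic fibers elsewhere, from 121 to 11043 per kb. The 6 endothelial markers lay between 179 and 1909 per kb and the 5 Schwann cell markers between 103 and 1022 per kb. The 5 melanocyte markers, pigment genes also used by RPE, reached 74294 per kb and the 5 measured macrophage markers 92625 per kb. Markers of tissue next to RPE/choroid were also high, with 4145 to 30177 per kb for 5 genes of rod photoreceptors and 921 to 28023 per kb for 5 genes of skeletal muscle. None of the lists had a marker at 0, and which of these cell types was a source was not tested. In bulk RNA the number of cells of a type and the RNA per cell cannot be told apart.

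**Figure D4:**
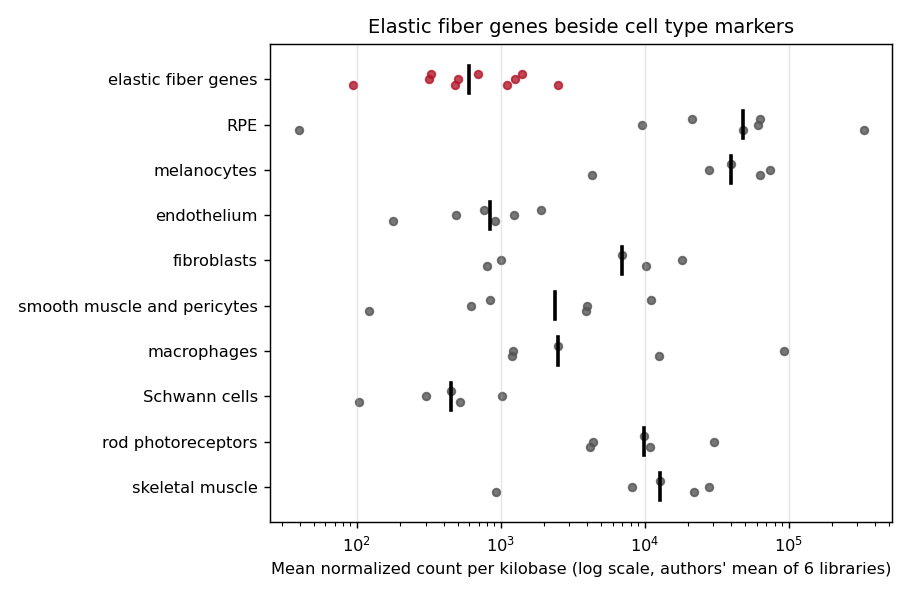
Level per kb on a log axis of the elastic fiber genes (red) and of marker genes of 9 cell types (grey), as the authors' mean of 6 libraries, with a black bar at each list's median. RPE, melanocyte, rod and skeletal muscle markers mostly lie above the elastic fiber genes, whose highest level is 2505 per kb, while endothelial and Schwann cell markers lie in the same range.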

How the data were processed

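The authors sequenced poly(A) RNA from RPE/choroid, with 3 young and 3 aged mice. The labels also name a ribosomal RNA removal kit and a stranded total RNA kit. Per the study's methods, the authors trimmed read pairs of 100 bases with BBDuk, mapped them with STAR to an Ensembl annotation of GRCm38, quantified transcripts with Sailfish as TPM, transcript abundances corrected for length and depth, turned these into normalized counts by scaling to total counts, and ran DESeq2 between ages, and the submitters' processing notes name STAR, DESeq2 and GRCm38. The table deposited by the authors gives for each gene a signal, the mean normalized count over all 6 libraries, which was used here. Its 5 other columns of values hold the authors' log2 fold change, standard error, Wald statistic, p-value and adjusted p-value, which were not used. As it holds no value per library, the planned test between the age groups was not made.

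Genes were matched by symbol or synonym to GENCODE M21 (GRCm38), which gave a model for 97.3% of the 18479 genes with a mean of at least 10. All 10 members matched by symbol. Where the normalized counts kept the length correction of TPM, a level per kb divides by length a second time. Levels are means divided by the longest transcript in kb, and the undivided means are given beside them, and percentiles are the percent of genes with a lower level. Computations used Python 3.11.15 and figures used matplotlib 3.10.9. The functions for merged exon length, medians, levels per kb, percentiles, reverse complements and motif matches were checked on small inputs with known answers. Symbol matching and the search for shared words had no such check. The members and lists were chosen with earlier results of these data known. The genes named are the 10 members, the highest gene of each other list and genes at 0, and any other gene was named after its values were seen. The macrophage gene Adgre1 appears under its older symbol Emr1. Alternatives were other lengths, no division by length and other filters on the mean.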

Additional observations from a re-analysis of the deposited data

How the results depend on the processing

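No paired analysis was possible because single libraries have no values in the deposited file. For the same reason the planned edgeR test, other size factors, a filter on counts in single libraries, the replicate block and leaving out each replicate were not run. The coding length was taken from the annotation, chosen after seeing the data, in place of the planned length from RefSeq proteins. With no spread between replicates to judge by, a value was counted as moved when it changed by more than 1.5 times.

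The share of the 5 fibulins was 63.9% with no division by length and 87.5% with the median coding transcript, in place of 77.7%. The other alternatives lay between these. All stayed within 1.5 times, but a share this high cannot rise by that much. The share of the 2 fibrillins was 5.25% with the median coding transcript and 26.2% with no division by length, in place of 9.07%. That of Eln was 2.02% with the median coding transcript and 2.09% with merged exons, in place of 3.78%. The summed level of the 10 members was 16323 per kb with the median coding transcript and 16761 per kb with coding length, in place of 8704 per kb. Shorter lengths give higher levels by construction. With the median coding transcript Fbln2 alone stood at 4852 per kb, first of the members, from a median of 477 bases. This 1 level enters the 87.5%, the 5.25%, the 2.02% and the 16323 per kb above. Of 30 alternative levels of single members 23 stayed within 1.5 times. The exceptions were Fbln2 and Efemp2 with the median coding transcript, Eln with merged exons, and Fbln1, Fbln5, Efemp2 and Mfap2 with coding length. Of 20 alternative percentiles 19 stayed within 1.5 times. That of Fbn2 moved from 33.6 to 50.4 among all genes with a mean above 0, which takes it past the median. These alternatives changed only the filter on the mean, not the length or the scale, and high percentiles had little room to rise. Percentiles ran from 50.4 to 94.3 among all genes with a mean above 0 and from 23.0 to 91.1 among genes with a mean of at least 50.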
